A study of Mus musculus with 43 samples.

Results

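EKLF, the product of Klf1, was called at 2879 positions inside genes in the wild-type fetal liver list that no region of the Nan/+ list touched. These WT-only regions inside genes were chosen by the measured overlap of the lists and by annotation. A region of the WT list had to overlap no region of the Nan/+ list by even 1 bp, and its centre had to lie inside a protein-coding gene, more than 1 kb from both ends of every protein-coding gene. They made up 2879 of the 9181 regions in the WT list. The absence of overlap and the distance from gene ends are therefore the definition of the set and are not findings. Both groups were mouse embryos at E13.5 (embryonic day) from the Nan strain: WT embryos, and Nan/+ embryos, which carry 1 Nan allele of Klf1 beside 1 wild-type allele. Livers were dispersed to single cells without a sort, and the labels call the cells primary erythroid. Chromatin was immunoprecipitated with the 7B2a antibody to EKLF, in 3 libraries per genotype that the series design describes as biological replicates from littermates. The labels do not say which allele's product the antibody recovered in Nan/+.

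EKLF is an erythroid transcription factor of the Krüppel-like family. It binds the CACCC box through its zinc fingers and activates globin, heme synthesis, membrane skeleton and cell cycle genes as red cells form in the fetal liver. Nan alters an amino acid within a zinc finger, so that the variant protein reads a different set of DNA sequences beside the wild-type protein in heterozygotes. EKLF sites are known both at promoters and in introns, where several act as enhancers.

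Each genotype had 1 region list made from its 3 libraries together, so no value carries a spread between replicates and no difference could be tested. All comparisons below set 2 lists side by side. Intervals are exact Clopper-Pearson 95% intervals, which cover counting error only, and neighbouring regions are not independent. Depth was alike, at 74140385 to 103170594 tags per WT library and 72023512 to 100763687 per Nan/+ library, per the file headers. A region absent from the Nan/+ list can lie just under its threshold, since the lists give no signal per region. In a mixed tissue, fewer cells of a type with EKLF on a site and less EKLF per cell cannot be told apart. The lists were also called with different region sizes, the WT list with the smaller one, and whether this contributed to the differences was not tested.

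A minority of the regions lay over an internal transcription start. Of the 2879 regions, 247, or 8.58% (95% interval 7.58 to 9.66), overlapped a RefSeq promoter window, the 300 bases from 250 before to 50 after an annotated start. In 224 of these the start belonged to the host gene itself, in 216 genes, and in the other 23 to a transcript that is not protein-coding. Regions over a window had a median width of 462 bp and those elsewhere 317 bp. The 250 bases before such internal starts are printed below from the RefSeq table of GRCm38.p6, the assembly behind mm10. They come from listed host genes with a member over a start of their own, and from the gene under the widest member. Each is written 5′ to 3′ on the strand of the gene, and capitals mark CCNCNCCC, a relaxed form of the EKLF recognition sequence, on either strand. The windows were chr1:120265287-120265536 (minus strand) for Steap3, a ferrireductase of iron uptake, chr6:58640296-58640545 (plus) for Abcg2, a porphyrin exporter, and chr16:49855404-49855653 (plus) for Cd47, the surface signal that restrains macrophages. They were chr19:46039622-46039871 (minus) for Ldb1, the looping cofactor of GATA1 and TAL1, chr17:47593217-47593466 (plus) for Ccnd3, which encodes cyclin D3, and chr15:98108306-98108555 (plus) for Pfkm, a phosphofructokinase. The last were chr7:46845554-46845803 (plus) for Ldha, lactate dehydrogenase A, chr5:124446454-124446703 (plus) for Kmt5a, the histone H4 lysine methyltransferase, and chr6:117917044-117917293 (plus) for Hnrnpf, an RNA-binding protein.
Steap3: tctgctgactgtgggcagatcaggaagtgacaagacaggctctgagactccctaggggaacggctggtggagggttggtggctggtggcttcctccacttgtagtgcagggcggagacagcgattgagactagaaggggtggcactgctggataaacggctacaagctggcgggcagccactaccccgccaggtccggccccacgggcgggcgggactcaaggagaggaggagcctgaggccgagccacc
Abcg2: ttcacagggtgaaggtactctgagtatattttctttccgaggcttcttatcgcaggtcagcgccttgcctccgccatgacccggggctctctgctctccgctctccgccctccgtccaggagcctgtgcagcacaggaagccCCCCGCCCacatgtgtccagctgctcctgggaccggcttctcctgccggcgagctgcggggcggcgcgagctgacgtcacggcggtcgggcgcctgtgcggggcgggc
Cd47: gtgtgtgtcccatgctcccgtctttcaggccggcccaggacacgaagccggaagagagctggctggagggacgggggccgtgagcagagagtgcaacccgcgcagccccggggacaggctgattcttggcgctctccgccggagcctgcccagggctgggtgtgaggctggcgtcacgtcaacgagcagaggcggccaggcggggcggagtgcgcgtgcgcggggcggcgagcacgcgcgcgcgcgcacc
Ldb1: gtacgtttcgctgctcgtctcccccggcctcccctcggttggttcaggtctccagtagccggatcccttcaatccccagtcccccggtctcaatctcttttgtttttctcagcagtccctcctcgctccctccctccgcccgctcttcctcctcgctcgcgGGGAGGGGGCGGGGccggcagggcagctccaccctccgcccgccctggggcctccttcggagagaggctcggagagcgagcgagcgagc
Ccnd3: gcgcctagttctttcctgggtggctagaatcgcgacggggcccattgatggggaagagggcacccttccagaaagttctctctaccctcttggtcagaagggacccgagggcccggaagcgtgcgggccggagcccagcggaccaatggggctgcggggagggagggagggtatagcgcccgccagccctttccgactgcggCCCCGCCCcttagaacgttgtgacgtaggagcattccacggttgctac
Pfkm: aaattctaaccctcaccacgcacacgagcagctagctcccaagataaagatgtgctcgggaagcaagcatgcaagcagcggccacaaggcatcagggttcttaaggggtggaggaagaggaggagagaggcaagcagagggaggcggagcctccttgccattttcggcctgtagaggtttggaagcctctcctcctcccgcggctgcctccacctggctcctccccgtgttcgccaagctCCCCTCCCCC
Ldha: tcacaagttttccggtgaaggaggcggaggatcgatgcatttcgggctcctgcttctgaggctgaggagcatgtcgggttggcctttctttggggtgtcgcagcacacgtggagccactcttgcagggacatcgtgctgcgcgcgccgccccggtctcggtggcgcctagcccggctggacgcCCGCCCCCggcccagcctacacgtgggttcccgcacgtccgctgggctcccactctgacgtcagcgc
Kmt5a: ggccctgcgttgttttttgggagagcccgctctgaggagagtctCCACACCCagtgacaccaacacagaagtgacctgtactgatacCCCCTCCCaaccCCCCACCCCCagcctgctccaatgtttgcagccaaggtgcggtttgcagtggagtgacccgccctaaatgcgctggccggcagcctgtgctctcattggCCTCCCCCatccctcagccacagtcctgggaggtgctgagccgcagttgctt
Hnrnpf: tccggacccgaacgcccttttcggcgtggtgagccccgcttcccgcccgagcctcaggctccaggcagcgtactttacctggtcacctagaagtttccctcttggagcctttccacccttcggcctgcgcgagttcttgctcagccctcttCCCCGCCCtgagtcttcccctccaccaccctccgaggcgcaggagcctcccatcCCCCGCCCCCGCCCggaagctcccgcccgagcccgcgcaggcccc

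The region over the Abcg2 start, chr6:58640140-58641033, was 894 bp wide, covered all 250 printed bases and held the start base 56.1 kb into the gene. At Steap3 a 366 bp region, chr1:120265214-120265579, also covered all 250 bases, and the nearest Nan/+ region was 21690 bp away. The Cd47 region was 1173 bp wide and lay only 520 bp from a Nan/+ region. The 3 are alike in lying wholly over the printed stretch and differ in how close the Nan/+ list comes. Steap3 and Cd47 had 0 CCNCNCCC matches in the printed bases and Abcg2 had 1. Ldb1 had 3 matches, Pfkm had 2, Ccnd3 and Ldha had 1 each, and Kmt5a had 5, of which 2, among them the 1 CCACACCC of the set, lie outside the called region. The regions covered 223 of the 250 printed bases at Ldha, 216 at Ldb1, 185 at Pfkm, 154 at Kmt5a and 121 at Ccnd3. Hnrnpf had 4, under the widest of all 2879 regions, chr6:117915604-117917799 at 2196 bp.

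Over all promoter windows under the WT-only regions inside genes, 221 of 305, or 72.5% (67.1 to 77.4), held CCNCNCCC on either strand, against 49.8% of all 32585 windows in the table. These windows were also richer in G and C, with a median of 63.0% against 53.0%. Windows under regions of other classes had similar shares, 76.1% (69.9 to 81.6) under regions that were shared inside genes, 75.4% under WT-only regions at gene ends and 73.2% (65.5 to 80.0) under Nan-only regions inside genes. The strict CACCC box CCACACCC was as frequent as in the table, at 3.61% (1.81 to 6.36) against 3.57%. The variants CCACGCCC, CCCCGCCC and CCCCACCC were not among the planned sequences, and CCACGCCC was added after the data were seen. CCACGCCC stood at 11.8% (8.41 to 16.0) against 5.36%, CCCCGCCC at 34.4% against 17.7% and CCCCACCC at 10.2% against 10.1%. Under regions of the other classes, CCACGCCC ran from 8.5% to 16.0% and CCCCGCCC from 32.0% to 50.0%. These variants and CCACACCC are among the sequences that CCNCNCCC takes in. The GATA sequence AGATAA was in 8.20% (5.37 to 11.9) against 11.2%, and the E-box CANNTG in 64.3% against 72.3%. Whether base composition accounts for the shares was not tested, and a match is not a binding site. The bases of regions away from promoter windows were not analysed here.

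Within the WT list, regions inside genes were seldom shared. Of all WT regions outside the mitochondrial chromosome and unplaced sequence, 75.5% had no Nan/+ overlap, and inside genes 84.1% had none (82.9 to 85.3, 2879 of 3422). The share was 63.8% within 1 kb of gene ends and 88.6% outside genes. Since the rule rests on this overlap, these shares are a description. WT-only regions inside genes ranged from 126 to 2196 bp in width, with a median of 326 bp and quartiles of 224 and 458 bp. The median was 519 bp for the 543 shared regions inside genes, 440 bp for WT-only regions at gene ends and 311 bp for those outside genes. A wider region overlaps more readily, so width is not independent of the rule. Among the wider 50% of WT regions, over 396 bp, the WT-only share was 73.1% inside genes, 58.3% at gene ends and 81.0% outside. Next to the rule's limits, the 48 regions with a centre at most 100 bp beyond the 1 kb limit had a median width of 365 bp, and the 42 WT-only regions at most 100 bp short of it had 398 bp. The smallest overlap that made a region shared was 5 bp, and the smallest gap that left a region WT-only was 4 bp.

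**Figure D1:**
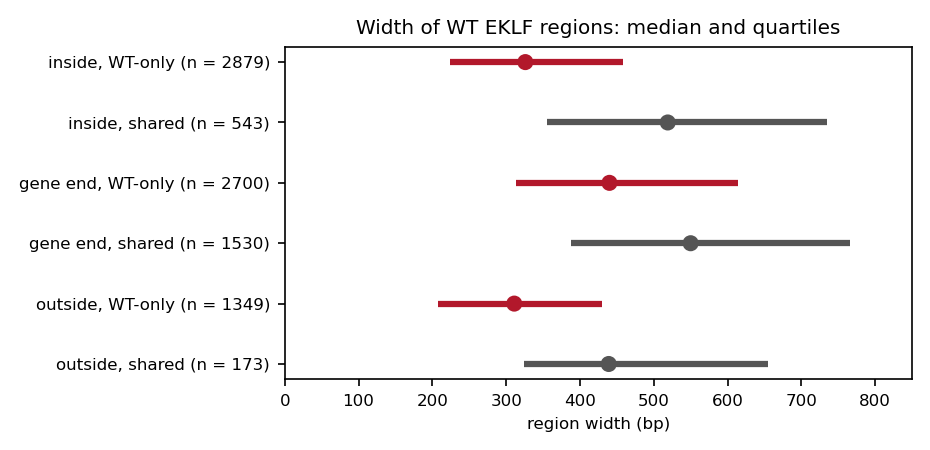
Width in bp (x axis) of WT EKLF regions by place and by overlap with the Nan/+ list; points are medians and bars run from the lower to the upper quartile over regions. WT-only regions inside genes, at a median of 326 bp, sit below shared regions inside genes at 519 bp and beside WT-only regions outside genes at 311 bp.

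Many of the regions had Nan/+ regions nearby. The median gap to the nearest Nan/+ region was 7516 bp. It was at most 250 bp for 96 regions and at most 1 kb for 369, or 12.8% (11.6 to 14.1), so for these the lists mark neighbouring rather than distant positions. A Nan/+ region lay within 10 kb of 1632 regions, or 56.7% (54.9 to 58.5), and none within 100 kb of 165. In the other direction, 27.7% of Nan-only regions inside genes had a WT region within 10 kb, with 9181 regions in the WT list against 15564 in the Nan/+ list. Of the 8128 Nan-only regions inside genes, 5078 had the smallest width in that list, 176 bp, and the Nan-only counts below include them. Counted by gene, 72.3% (70.6 to 73.9) of the regions lay in a gene that also held a Nan/+ region in its interior.

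The 2879 regions fell in 1737 host genes, which is 9.09% of the 19104 protein-coding genes over 2 kb. In 35 cases the position belonged to 2 overlapping genes. A single region was found in 1216 hosts and 5 or more in 78 hosts, which together held 604 regions, or 21.0%. Hosts were long, with a median of 54.5 kb against 19.4 kb for other genes over 2 kb. Per length the order turned round: genes of 2 to 10 kb held 6.48 regions per Mb of interior, genes of 30 to 100 kb held 4.14 and genes over 300 kb held 0.712. Nan-only regions inside genes had 7.69, 11.3 and 3.14 per Mb in the same length classes, so that the shortest genes were not their densest. Of the hosts, 44.4% (42.1 to 46.8) had a WT region within 1 kb of an end, against 21.0% (20.4 to 21.6) of other genes. Where the strand was known, the WT region lay at the start in 41.1% of hosts and at the other end in 5.65%, against 20.8% and 1.84% of other genes. A Nan/+ region lay in the interior of 60.2% (57.9 to 62.5) of hosts and of 16.0% (15.4 to 16.5) of other genes. Hosts are longer than other genes, and how far length accounts for these differences was not tested.

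Along the gene the regions leaned to the side of the start. The strand was known for the hosts of 2283 regions, of which 60.5% (58.5 to 62.5) lay nearer the start than the other end. The first decile of the gene body held 16.8% (15.3 to 18.4) and the last decile 7.18% (6.16 to 8.32). Without regions over a promoter window the share nearer the start was 57.7% (55.6 to 59.9) and the first decile held 14.0%. Shared regions inside genes leaned further, with 70.9% (66.4 to 75.1) nearer the start and 26.1% in the first decile. Nan-only regions were spread more evenly, with 52.0% (50.7 to 53.2) nearer the start and between 8.43% and 10.9% in each decile. The first and last kb of each gene are left out by the rule in all 3 classes.

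**Figure D2:**
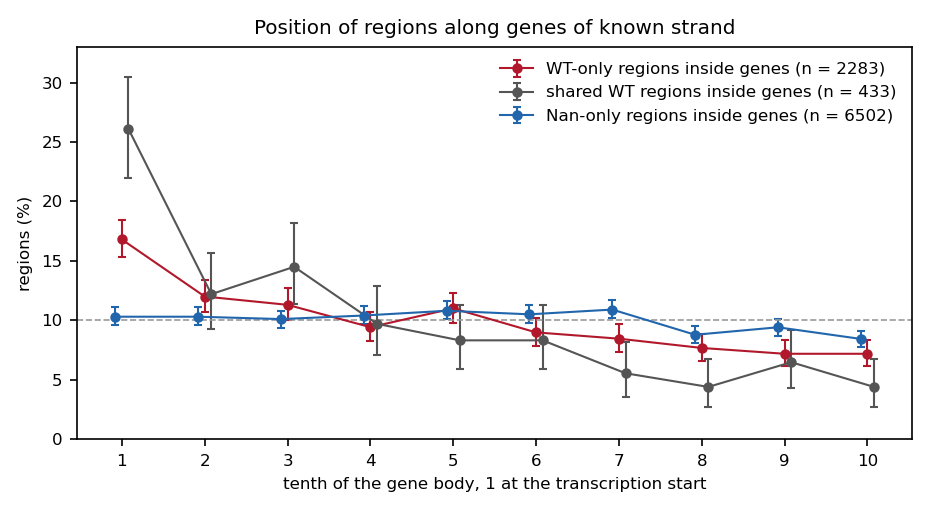
Share of regions (y axis, percent) in each decile of the gene body (x axis, 1 at the transcription start) for WT-only, shared and Nan-only regions inside genes of known strand; bars are exact 95% intervals and the dashed line marks an even spread. WT-only regions decline from 16.8% in the first decile to 7.18% in the last, between the steeper shared and the flatter Nan-only regions.

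Genes of the membrane skeleton held many WT-only regions. Ank1 (gene ID 11733, chr8:22974836-23150501), which encodes the ankyrin that ties spectrin to band 3, held 25 WT-only regions, the most of any gene under the main rule, beside 7 shared and 19 Nan-only regions. Without regions within 1 kb of a Nan/+ region Ank1 held 16, below Sox6 with 18 and Marchf3 with 17. With WT regions within 1 kb merged it held 16 and Sox6 19, and among the widest 50% of WT regions it held 11 and Marchf3 13. Most lay in 2 chains. A chain of 13 with gaps of at most 10 kb ran over 45.6 kb, chr8:23028154-23073762, and included a 1502 bp region centred 60.26 kb from the lower-coordinate end. This chain had 13 Nan/+ regions among its own. A second chain of 8 over 18.3 kb, chr8:23128954-23147269, had 0. The WT-only regions of Ank1 thus alternate with Nan/+ regions along part of the gene and have none among them along another. Just beyond the second chain, however, a Nan/+ region lay 113 bp from its last region. Epb41, which encodes protein 4.1 and joins spectrin to actin, held 13 WT-only, 3 shared and 20 Nan-only regions over 152 kb. Its WT-only regions were 126 to 783 bp wide and 1.56 to 138 kb from the start. Sptb, encoding beta-spectrin, held 9, of which the widest had 1224 bp, beside 4 shared and 12 Nan-only regions.

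Dmtn, which encodes the actin-bundling protein dematin, held 8 WT-only regions in 33.9 kb (gene ID 13829, chr14:70602184-70636048). All lay within 12.1 kb, 15.96 to 27.5 kb from the lower-coordinate end, with widths of 755, 475, 375, 308, 1270, 339, 172 and 282 bp in that order. No Nan/+ region lay inside the gene or at its ends, and no shared region did. Kel, the gene of the Kell blood group antigen, held 4 regions of 237 to 483 bp and no Nan/+ region inside, while a shared region lay at its start. Slc4a1, the band 3 anion exchanger, held 3 regions of 1115, 1151 and 597 bp, and a Nan/+ region lay 409 bp from the first of these. Slc2a1, the glucose transporter GLUT1, held 4 WT-only and 4 shared regions and 0 Nan-only regions. Aqp1, a water channel, held 3 regions of 236, 597 and 428 bp at 1.76, 3.28 and 6.42 kb from the start. In the 28 red cell membrane genes, 21 held a region, at 63.1 WT-only regions per Mb of interior against 2.90 over all genes, and Nan-only regions stood at 59.2 per Mb against 8.16.

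**Figure D3:**
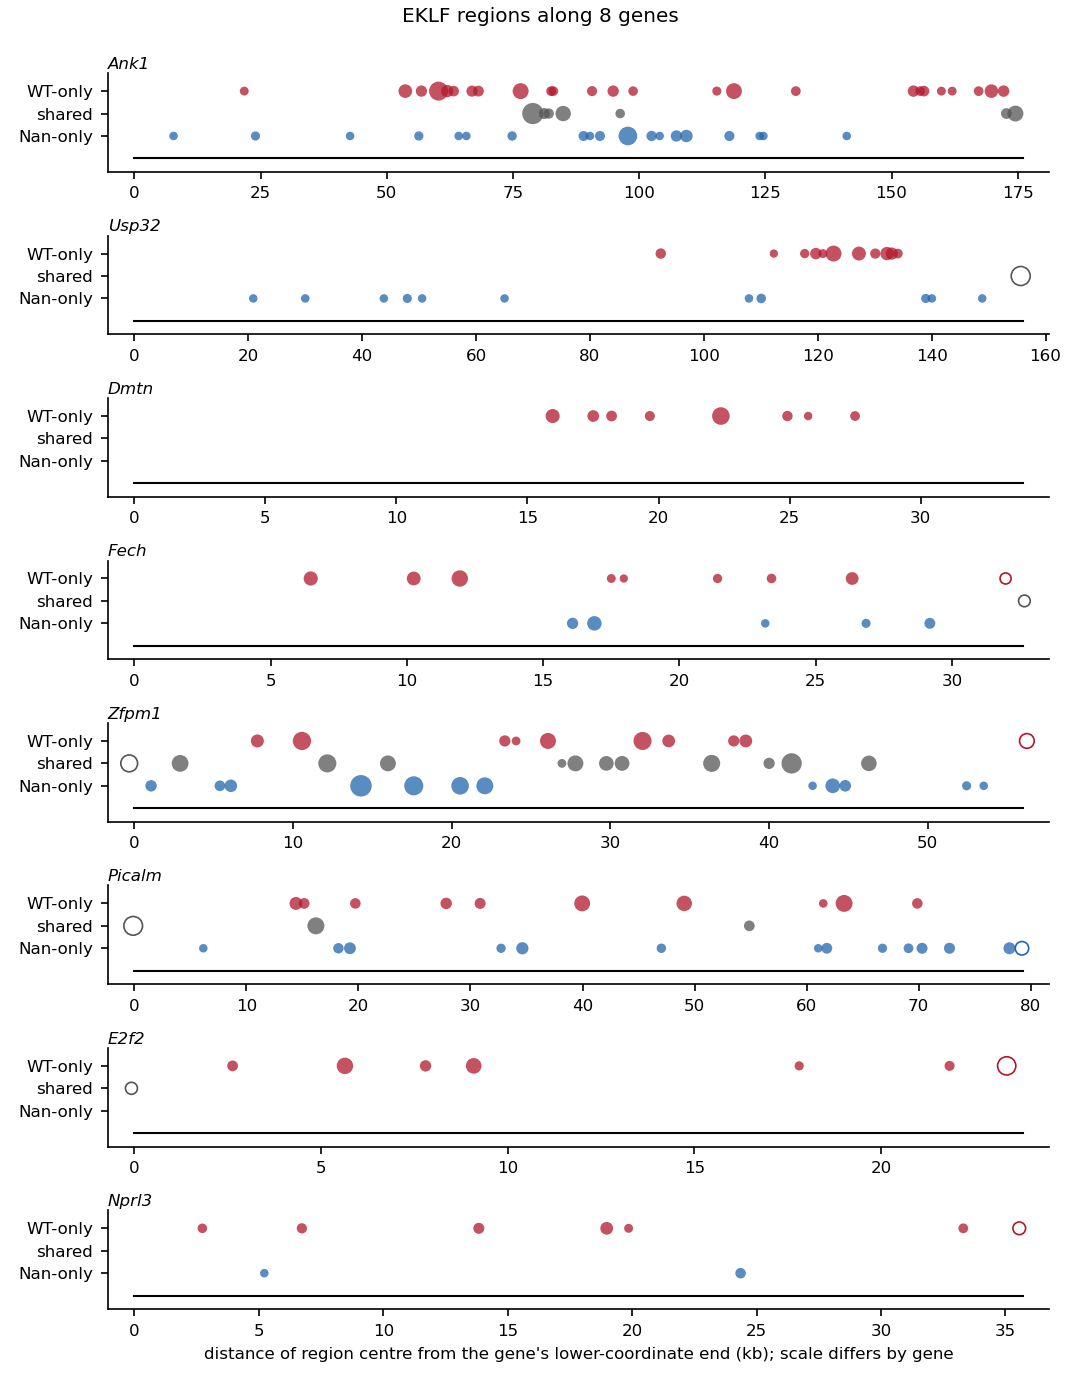
Centres of EKLF regions along 8 genes, as distance in kb from the lower-coordinate end (x axis, scale per gene), in rows for WT-only, shared and Nan-only regions; point size grows with region width and open points lie within 1 kb of an end of the gene drawn. Dmtn has 8 WT-only and no other regions, the 10 grouped regions of Usp32 have no Nan/+ region among them, and those of Zfpm1 and Picalm alternate with shared and Nan-only regions.

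Genes of heme synthesis were the densest list. Of 16 genes 9 held a region, at 66.1 per Mb, and Nan-only regions stood at 49.6 per Mb. Fech, ferrochelatase, which inserts iron into protoporphyrin, held 8 in 32.6 kb with widths of 157 to 1082 bp, beside 5 Nan-only regions. Of its chain, 3 regions at 6.47, 10.25 and 11.94 kb from the lower-coordinate end were the widest and preceded the first Nan/+ region at 16.08 kb. Abcb10, a mitochondrial inner membrane transporter, held 5 regions, 2.05 to 11.8 kb from its start, and 3 Nan-only regions. Alas2, which starts heme synthesis in erythroid cells, held 3 WT-only regions of 313, 374 and 405 bp, beside 1 shared and 2 Nan-only regions. The 3 WT-only regions also lie within the overlapping gene Apex2, and the nearest Nan/+ region was 9576 bp from the first of them. Slc25a38, the mitochondrial glycine carrier, held 3 regions of 206, 659 and 751 bp, and the nearest Nan/+ region was 113597 bp away. Cpox, coproporphyrinogen oxidase, held a pair of 442 and 490 bp, separated by 147 bp. Of 15 iron genes over 2 kb, 4 held a region. Tfrc, the transferrin receptor, held 5 of 239, 708, 803, 1185 and 539 bp, beside 1 shared and 3 Nan-only regions. Slc25a37, the mitochondrial iron importer, held 3, Steap3 held 3 and Ncoa4, the receptor for ferritin turnover, held 2. Steap3 had no Nan/+ region inside or at its ends.

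Genes of erythroid transcription factors carried many WT-only regions and still more Nan-only ones. Of 38 listed genes, 20 held a WT-only region, at 34.8 per Mb, and 25 a Nan-only region, at 61.2 per Mb. The 20 include Trim58, which encodes a ubiquitin ligase and is counted again with the enucleation genes. Sox6, which represses embryonic globin genes, held 20 WT-only regions over 570 kb, from 60.3 to 505 kb from the start and 167 to 678 bp wide, beside 42 Nan-only and 3 shared regions. Zfpm1, encoding the GATA1 cofactor FOG1, held 9 WT-only, 11 shared and 12 Nan-only regions in 56.0 kb. Its widest WT-only regions had 1382 bp (chr8:122291725-122293106) and 1343 bp (chr8:122313219-122314561), the latter 188 bp from a Nan/+ region. Tal1, the hematopoietic basic helix-loop-helix factor, held 4 WT-only regions of 569, 214, 370 and 165 bp in 15.3 kb, beside 1 shared and 1 Nan-only region. Its 569 bp region, chr4:115059107-115059675, covered the start of a transcript that is not protein-coding, Gm33786. Lmo2, a partner of TAL1, held 3 regions and no Nan-only region, with widths of 471, 789 and 303 bp. Runx1, a factor of blood stem cell formation, held 6 against 16 Nan-only regions, and Cbfa2t3, encoding the corepressor ETO2, held 5 against 15. Foxo3 held 7 against 5, the widest 1276 bp. Klf3, a CACCC-binding repressor, held 2 of 388 and 912 bp, and the smaller lay 41 bp from a Nan/+ region. Bcl11a, another repressor of embryonic globin genes, held 1 of 330 bp at 2.50 kb from the start. Klf1 and Gata1 held 0 WT-only regions and 1 shared region each in the interior. Klf1 is 3.31 kb long, which leaves little interior under the rule, and 3 WT-only regions lay at its ends. Gata2 held 0 of both.

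Among the cell cycle genes 9 of 35 held a region. E2f2, an activating E2F factor, held 6 in 23.8 kb (gene ID 242705, chr4:136172274-136196057) with widths of 376, 1089, 437, 971, 229 and 308 bp. They lay 2.63, 5.64, 7.80, 9.09, 17.81 and 21.84 kb from the lower-coordinate end, and no Nan/+ region lay among them. Ccnd3 held 8, from 275 to 894 bp, against 4 Nan-only regions. Of these 1 lay 15 bp from a Nan/+ region and another, over the start printed above, 34111 bp away. E2f4, an E2F factor needed for red cell maturation, held 1 of 524 bp, 176 bp from a Nan/+ region. Cdkn1b, the inhibitor p27, held 1 of 542 bp. Nprl3, whose introns contain enhancers of the neighbouring alpha-globin genes, held 6 of 267, 326, 403, 593, 212 and 283 bp, and its 2 Nan-only regions had 176 and 349 bp. The 10 globin genes are all shorter than 2 kb and cannot hold a region under the rule.

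The remaining lists were covered as follows. Of 35 acetyltransferase and chromatin genes 15 held a region, led by Arid1b, a subunit of the BAF remodelling complex, with 14 of 176 to 742 bp. Ep300 and Crebbp held 0, while 1 shared region lay at the start of Ep300. Of 16 blood group and surface antigen genes 6 held a WT-only region, with 4 each in Cd47 and Kel. Of 18 glycolysis genes 6 did, with 4 in Hk1, which encodes hexokinase, and 1 each in Pfkm, Hk2, Pklr, Eno1 and Ldha. Of 25 enucleation and autophagy genes 8 did, with 4 in Xpo7, a nuclear exportin, 2 in Bnip3l, which marks mitochondria for removal, and 1 of 660 bp in Trim58, a ubiquitin ligase of late erythroblasts. Of 21 Epo and Kit signalling genes 6 did, with 3 in Bcl2l1, which encodes the survival factor BCL-XL, while Epor and Kit held 0. Epor is 4.68 kb long, which leaves little interior under the rule, and 1 shared and 1 WT-only region lay at its start. Of 31 pausing and elongation genes 4 held a WT-only region, with 7 in Aff1 and 3 in Ell2, both of the super elongation complex. Of 16 housekeeping genes 3 did, 1 of them being Tfrc with 5. The housekeeping list held 34.1 WT-only regions per Mb of interior, from 7 regions, against 34.8 per Mb for erythroid transcription factors. Cell cycle genes stood at 25.7 per Mb and iron genes at 21.6.

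The marker lists chosen for other fetal liver cells held almost no WT-only regions. Lipc, the hepatic lipase gene, is on none of these lists and held 10. The counts were 0 of 16 hepatoblast genes (upper bound of the exact interval 20.6%), 0 of 14 macrophage genes (23.2%), 0 of 16 lymphoid and stem cell genes (20.6%), 0 of 12 endothelial genes (26.5%) and 1 of 13 megakaryocyte genes, Itgb3. All these intervals include the 9.09% of all genes over 2 kb. The intervals of 9 lists lay above it: red cell membrane, heme synthesis, erythroid transcription factors, chromatin, blood group, glycolysis, enucleation, Epo and Kit signalling and cell cycle, while those of iron, housekeeping and pausing genes included it. For the 9 lists above it, genes with Nan-only regions were also counted. More genes held a Nan-only than a WT-only region for erythroid transcription factors (25 against 20), chromatin (18 against 15) and enucleation (11 against 8). The same held for Epo and Kit signalling (12 against 6) and glycolysis (7 against 6). Fewer did for red cell membrane (16 against 21), heme synthesis (7 against 9), cell cycle (8 against 9) and blood group (3 against 6). Over all genes over 2 kb, 19.1% held a Nan-only region. Gene length differs between lists, from a median of 10.2 kb for hepatoblast markers to 56.4 kb for chromatin genes, and its part was not tested.

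**Figure D4:**
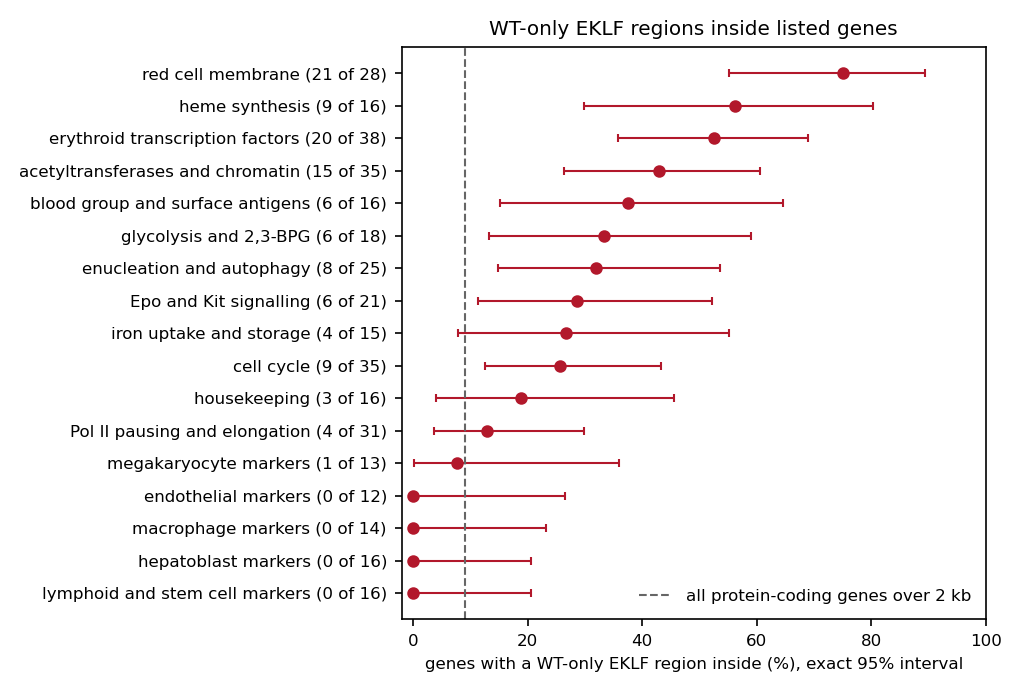
Share of the genes over 2 kb in each list that hold a WT-only region inside (x axis, percent), with exact 95% intervals; counts stand beside the names and the dashed line marks 9.09%, the share over all protein-coding genes over 2 kb. Red cell membrane genes stand highest with 21 of 28 and 4 marker lists of other cell types stand at 0.

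Several hosts with the most regions belong to none of the erythroid lists. Gse1 held 22 WT-only regions against 45 Nan-only ones. Marchf3, a membrane-bound ubiquitin ligase, held 20 with a summed width of 11769 bp, slightly over the 11504 bp of Ank1. St6galnac3, a sialyltransferase, held 14 against 5 Nan-only regions, Tbxas1, thromboxane A synthase, 12 against 11, and Syt14, a synaptotagmin, 10 against 2. Lipc, which encodes hepatic lipase, held 10 against 7. Picalm, a clathrin assembly protein, held 10 of 181 to 1157 bp against 13 Nan-only regions, 3 of them between 40 and 52 bp from a Nan/+ region. Usp32, a deubiquitinase (chr11:84984437-85140281), held 11, of which 10 formed a chain of 22.0 kb with no Nan/+ region in its span. Its 11 Nan-only regions lay on either side. Over all hosts, 875 held more WT-only than Nan-only regions, 332 as many and 530 fewer. Hosts were chosen for holding a WT-only region, so this tally favours WT-only regions by construction. A Nan-only region lay inside 1006 of the 1737 hosts. Among all genes over 2 kb, 3652 held a Nan-only region inside, against 1737 with a WT-only region.

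**Figure D5:**
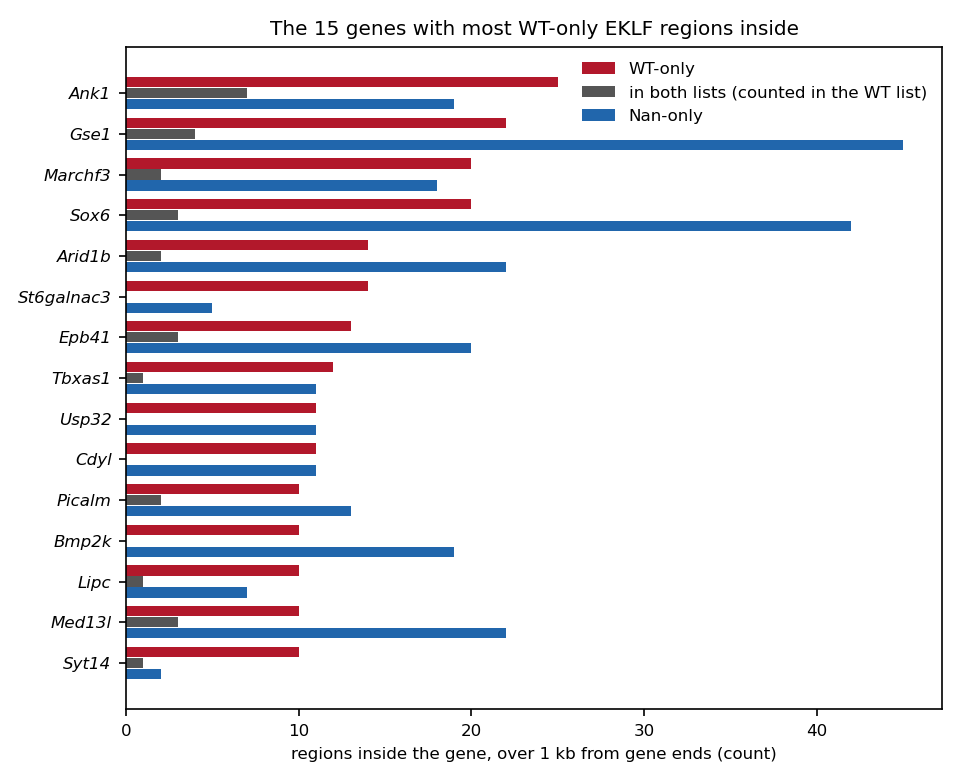
Number of EKLF regions (x axis) inside the 15 genes with the most WT-only regions, in bars for WT-only regions, regions in both lists and Nan-only regions. Ank1, Marchf3, St6galnac3, Tbxas1, Lipc and Syt14 have more WT-only than Nan-only regions, and Gse1 and Sox6 have 22 and 20 against 45 and 42.

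Chains were frequent. Another WT-only region inside a gene lay within 10 kb of 1030 regions, or 35.8% (34.0 to 37.6). Counting regions of any class in the same list, 49.9% had another within 10 kb. Other classes had similar or higher shares, at 49.4% for Nan-only and 60.0% for shared regions inside genes and 49.3% for WT-only regions outside genes. WT-only regions at gene ends had 34.0%. Of the chains, 24 held 5 or more, with 157 regions in all. In 8 of these 24 no Nan/+ region lay within the span: Usp32, Dmtn, the second Ank1 chain, E2f2, Abcb10, Mllt10, Tfdp2 and Ube2v1. Mllt10, Tfdp2 and Ube2v1 were named after their values were seen. The 6 regions of the Mllt10 chain were 314 to 574 bp wide, and 1 of them, chr2:18057465-18057970, covered the hairpin of Mir7655. It was the only region over any of the 1005 miRNA hairpins in the RefSeq table. Tfdp2 encodes a dimer partner of E2F factors, and its chain of 6 held a region of 1173 bp. No Nan/+ region lay inside or at the ends of 495 of the 1737 hosts. Of these 495, 13 held 3 or more regions, among them Dmtn with 8, Sla with 4 and Slc25a38 and Steap3 with 3 each. Counted in the interior alone, hosts lacked Nan/+ regions less often than genes in general. A Nan/+ region lay inside 60.2% of hosts and 20.0% of all genes over 2 kb. The share of all genes with none inside or at the ends was not counted. Hosts were also longer, with a median of 54.5 kb against 19.4 kb for other genes over 2 kb. Sla was likewise named after its values were seen.

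The widest regions lay in genes of varied function. After Hnrnpf came 1933 bp in Dapk2, a kinase (chr9:66181219-66183151), 1576 bp in Rbm38, an RNA-binding protein of erythroid splicing (chr2:173031925-173033500), and 1502 bp in Ank1. A region of 1407 bp lay in Gpr146, 47 bp from a Nan/+ region, 1392 bp in Mideas, 1337 bp in Slc25a37 and 1315 bp in Ppm1d, a phosphatase. The Mideas region was 26932 bp from the nearest Nan/+ region and the Dapk2 region 15073 bp, whereas those in Rbm38 and Slc25a37 were 390 and 465 bp from one. Wide WT-only regions were therefore found both beside Nan/+ regions and far from them. Whether any of these positions is exonic or intronic was not analysed here, since the gene table used gives no exons.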

How the data were processed

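EKLF ChIP regions of E13.5 fetal liver were analysed, from 3 WT and 3 Nan/+ ChIP libraries. Per the file headers, the authors called 1 list per genotype with HOMER on mm10, from all libraries against input (q of 0.01, fold of 4), with a DESeq2 step inside HOMER (false discovery rate 0.01, log2 fold of 2). WT used size 125 and minimum distance 250, Nan/+ 175 and 300, per the file headers. In each list 2 distinct inputs filled 3 places. Per the submitters' processing notes, further tools were Bowtie2 2.1, SAMtools 1.1, deepTools 3.5 and bcl2fastq 2.17. The deposited score was 1 in every row and was not used. Other deposited values, the positions, are printed counted from 1.

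Positions were compared in Python 3.11.15 with pandas 2.3.3 and scipy 1.17.1. The rule was checked on simulated regions. Genes, promoter windows and miRNAs came from RefSeq tables of GRCm38.p6, with 21519 protein-coding genes after alternate loci, Y and unplaced sequence were left out. Strand came from the promoter table. Host genes were counted among the 19104 genes over 2 kb. Of 386 entries in 18 gene lists, 385 matched. Named were the 15 genes with most regions, the 10 widest regions, the genes of the 8 largest chains, up to 6 genes per list and a fixed list. Some of these are left out of the text. Lmo2 and Aqp1 fall outside these rules, and neither held a Nan-only region inside. Their choice was not planned. The members and lists were chosen with earlier results of these data known. The planned motif search in the regions needs a genome sequence and was not run. The remaining samples were not used here.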

Additional observations from a re-analysis of the deposited data

How the results depend on the processing

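No paired analysis was possible because the 3 libraries of a genotype share 1 region list, which also leaves no replicate to omit. Of 72 alternative main values 43 stayed within 1.5 times (counts), the exact interval (shares) or the order-statistic interval (median width), and of 1017 values for single genes and lists 847 did. The numbers of regions (2099 to 3209), host genes (1203 to 1992) and listed genes with a region (81 to 114, main 106) stayed within 1.5 times except with the widest 50% of WT regions alone, which left 997, 712 and 62, fewer regions entering by construction. That setting gave a median width of 525 bp, 34.0% of regions in genes with a WT region at an end, 63.0% within 10 kb of a Nan/+ region and 15.5% over a promoter window. A reciprocal overlap of 50% gave 338 bp, 74.6% in genes with a Nan/+ region inside, 60.2% within 10 kb and 9.83% over a window. With no Nan/+ region within 1 kb, the shares were 68.8% with a Nan/+ region inside and 50.3% within 10 kb. With Nan/+ regions above the minimum width, they were 56.0% and 40.0%. Merging WT regions within 1 kb gave 54.7% within 10 kb and 45.7% with a WT region at an end. With 500 bp, 2 kb and 5 kb from gene ends, the share with a WT region at an end was 42.3%, 55.3% and 62.4%, since the end itself was widened, that over a window 10.5%, 6.77% and 5.43%, and that with a Nan/+ region inside 70.4%, 74.0% and 76.2%, with a median width of 315 bp at 5 kb. With all genes of the table, 70.1% had a Nan/+ region inside and 6.41% lay over a window. The causes of these shifts were otherwise not tested. Red cell membrane genes with a region numbered 12 to 21 over the settings and heme synthesis genes 6 to 10, while macrophage, lymphoid and endothelial markers stayed at 0 and hepatoblast and megakaryocyte markers ran from 0 to 2. Without tag counts per region, a weak Nan/+ signal cannot be told from none.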
